A study of Mus musculus with 6 samples.

Results

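RNA-seq counts from newborn mouse parietal bone were examined for 10 genes of the muscle atrophy and FoxO pathway. They were *Fbxo32*, *Trim63*, *Foxo1*, *Foxo3*, *Mstn*, *Gadd45a*, *Eif4ebp1*, *Ctsl*, *Bnip3* and *Map1lc3a*, taken by gene symbol from the 44556 symbols listed for every library. All 10 were listed and all 10 had enough counts to enter the test. Libraries came from 3 OsxCre newborns and 3 OsxCre;Stat3fl/fl littermates on the C57BL/6 background. Both genotypes carry the Cre transgene, whose promoter is active mainly in osteoblast precursors, and OsxCre;Stat3fl/fl mice also carry *Stat3* alleles with loxP sites around part of the gene. The libraries labelled OsxCre;Stat3fl/fl are called cKO-labelled libraries (conditional knockout) from here on. The question was how deletion of *Stat3* in the osteoblast lineage changes gene expression in the calvaria.

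In a muscle fibre, growth factor signalling through Akt keeps the FoxO transcription factors out of the nucleus. When that signal falls, FoxO factors switch on genes for protein breakdown, among them the ubiquitin ligases atrogin-1 (*Fbxo32*) and MuRF1 (*Trim63*), the lysosomal protease cathepsin L (*Ctsl*) and the autophagy genes *Bnip3* and *Map1lc3a*. Glucocorticoids induce several of the same genes, and myostatin (*Mstn*), a ligand secreted by muscle, restrains muscle growth. The FoxO factors, *Gadd45a*, *Eif4ebp1*, *Ctsl*, *Bnip3* and *Map1lc3a* are also used in many cells other than muscle.

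Libraries held 8193651 to 12080044 counts each. *Stat3* itself had between 1262 and 1685 counts, and was slightly above the OsxCre range in all 3 cKO-labelled libraries once scaled, at a log2 fold change of 0.12 (SE, standard error, 0.07, edgeR adjusted p = 0.442). The count covers the whole gene, including the exons that a deleted allele keeps, so it does not check the deletion. The study describes the newborns as male, and the labels give no sex. *Xist*, transcribed from the inactive X chromosome, had between 7333 and 12392 counts in each library. No read was counted for *Ddx3y* or *Kdm5d* of the Y chromosome, and *Eif2s3y* and *Uty* had 1 count each, both in cKO-labelled library 2. These counts do not match the stated sex, and the reason was not tested. Among marker genes, the osteoblast genes *Col1a2*, *Col1a1*, *Ibsp* and *Alpl* were present in every library. Their list of 10 had 8 negative log2 fold changes, and *Ibsp*, a bone matrix protein, fell by 0.66 on the log2 scale (adjusted p = 0.0213; call kept in 2 of the 6 fits without one library). The sample also held skeletal muscle. Summed over 14 sarcomere genes, the level was 31788 to 35326 CPM (counts per 1000000, with library sizes scaled by TMM) in OsxCre and 36731 to 54820 CPM in the cKO-labelled libraries. This is bulk tissue, so more or fewer cells of a type cannot be told apart from more or less RNA per cell.

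The promoters are shown for 2 genes. *Trim63* is the only one of the 7 members with a promoter in the RefSeq table (GRCm38.p6) whose window held the FoxO element GTAAACA or its reverse complement TGTTTAC. *Foxo3* passed the test between genotypes, as did *Ctsl*, whose window in the table belongs to a start inside the gene and is not shown. Each line gives the 250 bases before the annotated start of transcription on the gene's own strand, with matches in capitals.

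Trim63 (chr4:134314870-134315119, plus strand): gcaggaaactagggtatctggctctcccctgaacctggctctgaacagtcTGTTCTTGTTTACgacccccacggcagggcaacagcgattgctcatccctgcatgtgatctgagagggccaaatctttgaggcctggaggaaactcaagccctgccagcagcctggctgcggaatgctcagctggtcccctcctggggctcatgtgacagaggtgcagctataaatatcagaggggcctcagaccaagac

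Foxo3 (chr10:42276696-42276945, minus strand): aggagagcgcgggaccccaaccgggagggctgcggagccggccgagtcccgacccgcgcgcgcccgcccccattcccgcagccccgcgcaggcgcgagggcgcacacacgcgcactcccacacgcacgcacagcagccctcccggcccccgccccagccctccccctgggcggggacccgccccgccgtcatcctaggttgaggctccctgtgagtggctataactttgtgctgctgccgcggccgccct

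In *Trim63* the FoxO match lies at -194 to -188, counted from the start with -1 as the base before it. It directly follows TGTTCT at -200 to -195, a half-site of the glucocorticoid receptor, and the matches share no base. Both strands were searched, over 250 bases before and 50 after the start. Of 32851 promoter windows of that length, 3.65% held the FoxO element, 19.0% the half-site (TGTTCT or AGAACA) and 0.877% both. *Bnip3* held the E-box CACGTG at -108 to -103, as did 7.15% of windows. The STAT element TTCNNNGAA, found in 8.30% of windows, was in none of the 7 windows. The *Ctsl* window among these 7 belongs to a start inside the gene. *Fbxo32*, *Eif4ebp1* and *Map1lc3a* were not in the table. A match is a run of letters and was not tested as a binding site.

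Of the 10 genes, 2 were higher and 0 lower in the cKO-labelled libraries in the edgeR fit at an adjusted p under 0.05, namely *Foxo3* and *Ctsl*. Of the 15600 genes tested, 0.776% were called higher and 0.481% lower by the same rule. At an unadjusted p under 0.05, 5 of the 10 were higher and 0 lower, beside 8.03% and 8.34% of all genes tested. The CPM of the 3 cKO-labelled libraries lay above all 3 OsxCre values for 4 of the 10, *Foxo1*, *Foxo3*, *Eif4ebp1* and *Ctsl*, while 10.8% of all genes tested did so. The median log2 fold change was 0.28 over the 10 and -0.0037 over all genes tested. The 10 genes were chosen with earlier results of these data known, so none of these comparisons tests whether the set is raised.

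**Figure D1:**
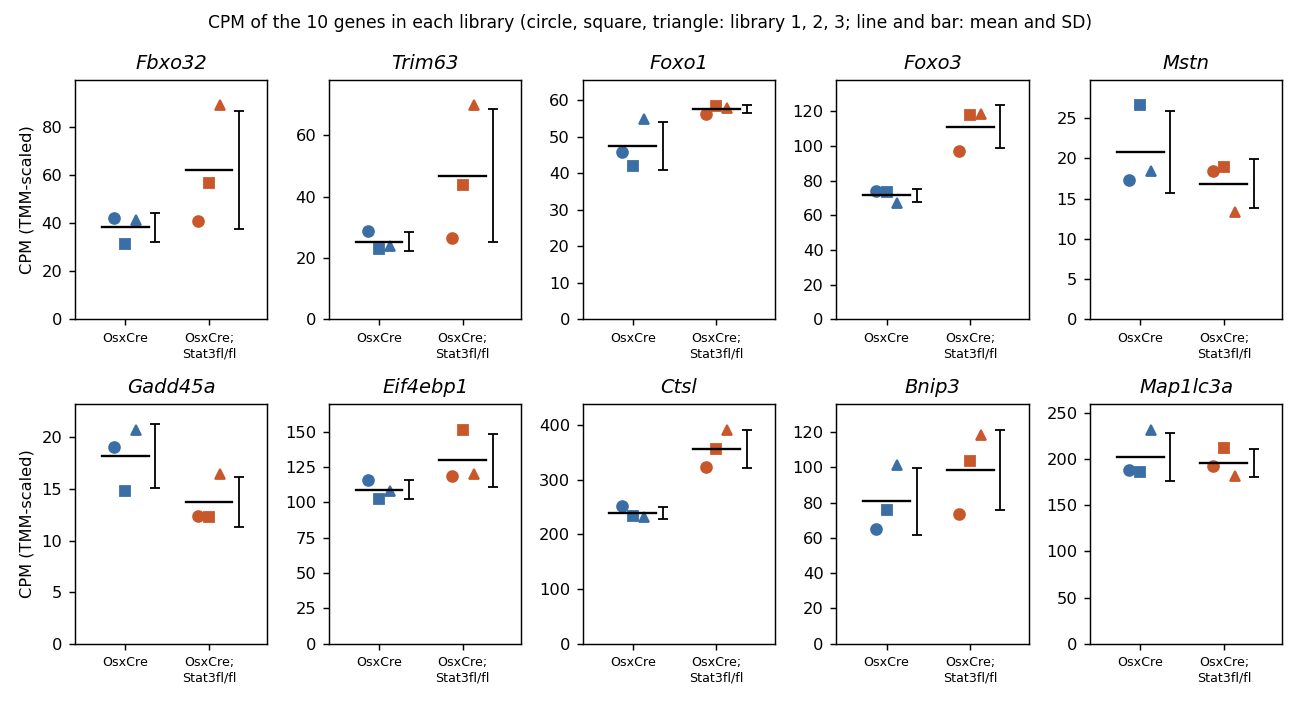
CPM (TMM-scaled) of each of the 10 genes in the 3 OsxCre libraries (blue) and the 3 libraries labelled OsxCre;Stat3fl/fl (orange), with circle, square and triangle for libraries 1, 2 and 3, the mean as a line and the SD as a bar. *Foxo3* and *Ctsl* are separated between genotypes, and *Fbxo32* and *Trim63* spread from control level in cKO-labelled library 1 to 88.9 and 69.7 CPM in library 3.

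**Figure D2:**
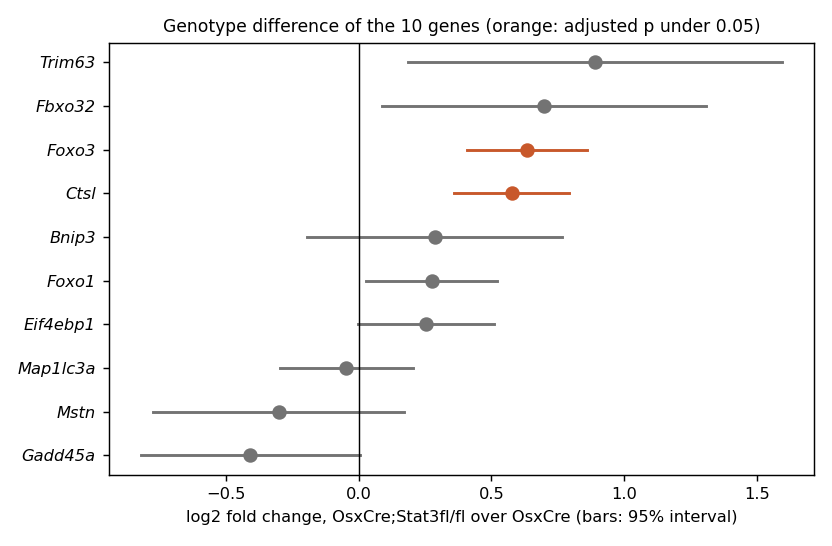
Log2 fold change of each gene, cKO-labelled over OsxCre, with its 95% interval from the edgeR fit, and orange for an adjusted p under 0.05. *Foxo3* at 0.63 and *Ctsl* at 0.58 are the genes called, and *Trim63* and *Fbxo32* have larger fold changes with wider intervals.

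*Foxo3* encodes the FoxO factor best known for driving atrophy genes in muscle, and it lies on chromosome 10 from 42181845 to 42276695 (GRCm38.p6), where the RefSeq gene *Gm38485* overlaps it. It had 74.0, 73.2 and 67.3 CPM in OsxCre libraries 1, 2 and 3, and 96.8, 118 and 118 CPM in the cKO-labelled libraries. The groups did not overlap, and the gap between them was wider than the range of either. *Foxo3* rose 1.55-fold, a log2 fold change of 0.63 (SE 0.10, 95% interval 0.41 to 0.86, adjusted p = 0.0285). The exact permutation test of the CPM, two-sided, gave p = 0.1, the smallest that 3 libraries against 3 allow. The call held in 1 of the 6 fits that left out one library, the one without cKO-labelled library 1, and the adjusted p was up to 0.136 in the others, the highest being without cKO-labelled library 3.

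*Foxo1*, the other FoxO factor among the 10, lies on chromosome 3 from 52268337 to 52350109. It had 45.8, 41.9 and 54.8 CPM in OsxCre and 56.3, 58.4 and 57.9 CPM in the cKO-labelled libraries. The cKO-labelled values lay close together and just above OsxCre library 3. The log2 fold change was 0.27 (SE 0.11, adjusted p = 0.257), which did not pass the adjusted threshold. Per kilobase of exon, *Foxo3* and *Foxo1* were at similar levels in OsxCre, with 9.92 ± 0.508 and 8.56 ± 1.19 CPM per kb (SD, n = 3). In the cKO-labelled libraries these were 15.4 ± 1.71 and 10.4 ± 0.191 CPM per kb.

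The muscle ubiquitin ligases were higher in part of the cKO-labelled libraries. *Fbxo32* (chromosome 15, 58175879 to 58214892, overlapped by *Gm36112*) encodes the F-box protein atrogin-1. It had 42.1, 31.4 and 41.2 CPM in OsxCre and 40.7, 56.5 and 88.9 CPM in the cKO-labelled libraries. *Trim63* (chromosome 4, 134315120 to 134329629) encodes a RING-finger ligase that targets sarcomere proteins, and it had 28.7, 22.9 and 24.0 CPM against 26.7, 43.9 and 69.7 CPM. For both genes cKO-labelled library 1 was inside the OsxCre range, library 2 above it and library 3 higher again, so the genotypes overlapped. The SD among cKO-labelled libraries was 4.16 times that among OsxCre libraries for *Fbxo32* and 6.98 times for *Trim63*.

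The log2 fold change was 0.70 for *Fbxo32* (SE 0.26, 95% interval 0.09 to 1.31, adjusted p = 0.245). It was 0.89 for *Trim63* (SE 0.30, 95% interval 0.19 to 1.596, adjusted p = 0.204). Neither passed the adjusted threshold of edgeR's test, while DESeq2's Wald test called *Trim63* with an adjusted p of 0.0401. Without cKO-labelled library 3 the log2 fold changes were 0.35 and 0.49. Their ratio to each other overlapped between genotypes. *Trim63* had 0.683, 0.729 and 0.582 counts per *Fbxo32* count in OsxCre and 0.655, 0.777 and 0.784 in the cKO-labelled libraries (exact permutation test, two-sided, p = 0.3). Among all 15600 genes, *Fbxo32* was the third nearest to *Trim63* in its profile over the 6 libraries, with a root mean square difference of 0.148 on the log2 CPM scale after centring each gene.

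Myostatin, the secreted ligand of the set, showed no such pattern. *Mstn* (chromosome 1, 53061640 to 53068079) had 17.3, 26.6 and 18.5 CPM in OsxCre and 18.4, 18.9 and 13.3 CPM in the cKO-labelled libraries. Its highest value was in OsxCre library 2 and its lowest in cKO-labelled library 3, the library where the ligases were highest. The log2 fold change was -0.30 (SE 0.20, 95% interval -0.77 to 0.17, adjusted p = 0.519).

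*Fbxo32*, *Trim63* and *Mstn* are expressed chiefly in muscle, so each was also set against the sarcomere genes of the same library. Per 1000 counts of the 14 sarcomere genes, *Trim63* had 0.862, 0.720 and 0.679 counts in OsxCre and 0.615, 0.801 and 1.90 counts in the cKO-labelled libraries. On this scale library 1 was below the OsxCre range, library 2 within it and library 3 far above it. For *Fbxo32* the values were 1.26, 0.989 and 1.17 against 0.939, 1.03 and 2.42, with the same order. The exact permutation tests, two-sided, gave p = 0.7 for *Trim63* and p = 0.9 for *Fbxo32*. Their log2 ratios of means were 0.55 for *Trim63* and 0.36 for *Fbxo32*. Without cKO-labelled library 3 these turned to -0.09 and -0.21. *Mstn* had 0.520, 0.836 and 0.523 counts per 1000 in OsxCre and 0.424, 0.344 and 0.363 in the cKO-labelled libraries, a ratio of means of 0.602. The groups did not overlap on this scale, on which 43.1% of all genes tested were lower without overlap (exact permutation test, two-sided, p = 0.1, the smallest possible).

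On this scale 3 of the 10 genes lay below all OsxCre values in every cKO-labelled library, *Mstn*, *Gadd45a* and *Map1lc3a*, and 0 lay above. Of all genes tested, 43.1% lay below and 1.16% above on the same scale, and the scaled sarcomere sum in the denominator was itself higher in each cKO-labelled library. The members' share was not above that background. Without cKO-labelled library 3, 6 of the 10 lay below, the others being *Foxo1*, *Eif4ebp1* and *Bnip3*, and 0 above, beside 69.7% and 1.24% of all genes tested. *Foxo3* and *Ctsl* overlapped between genotypes per 1000 sarcomere counts, with ratios of means of 1.18 and 1.15. The direction for both depended on the denominator. With *Acta1* alone the log2 ratios were 0.36 for *Foxo3* and 0.31 for *Ctsl*, and *Foxo3* lay above all OsxCre values, as did 1.79% of all genes tested. *Mstn* and *Map1lc3a* stayed below with *Acta1* (30.2% of all genes tested did), and *Gadd45a* overlapped. With the developmental myosin and myogenic genes, whose sum includes the embryonic myosin *Myh3*, the log2 ratios were -0.21 for *Foxo3* and -0.25 for *Ctsl*. *Fbxo32* was at -0.10 and *Trim63* at 0.08 with that denominator. Of the 10 members, 5 lay below and 0 above, beside 78.5% and 0.417% of all genes tested. With the fast fibre genes the same 3 members as with the sarcomere genes lay below and 0 above, beside 34.8% and 1.4%. *Foxo3* and *Ctsl* are expressed in many cell types, and how much of each came from muscle was not tested.

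**Figure D3:**
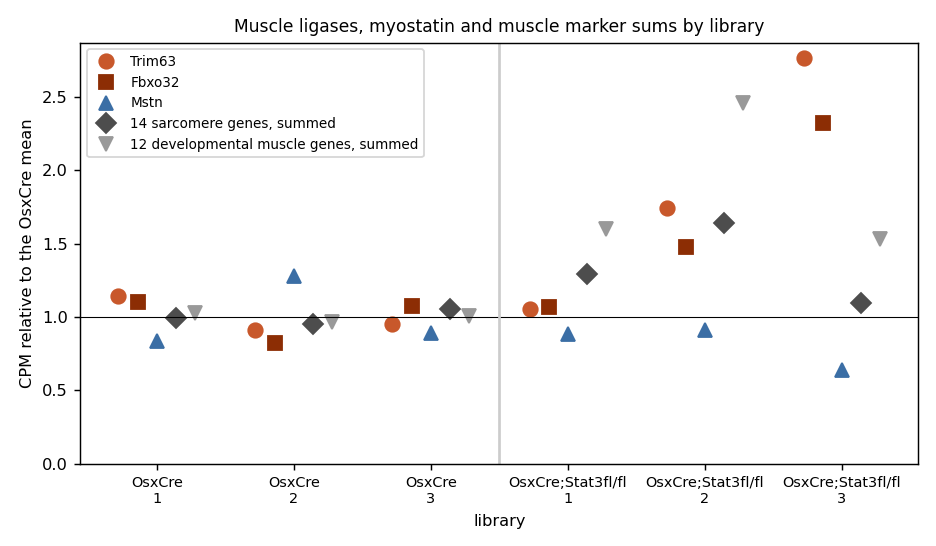
CPM of *Trim63*, *Fbxo32*, *Mstn* and of the summed muscle marker lists in each library, divided by the mean of the 3 OsxCre libraries (line at 1). In cKO-labelled library 3, *Trim63* and *Fbxo32* are at 2.76 and 2.32 times the OsxCre mean while the sarcomere sum is at 1.10, and in library 2 the sarcomere sum is at 1.64.

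The levels of the muscle markers stand beside these genes. Of 14 sarcomere genes, 13 had a positive log2 fold change and 0 passed the adjusted threshold, with *Acta1* at 0.30, *Mylpf* at 0.65, *Ckm* at 0.58 and *Tnnc2* at 0.36. The remaining sarcomere gene was at -0.51 and lay below every OsxCre value in the cKO-labelled libraries, as did 1905 of the 15600 genes tested. The 10 fast fibre genes had a median of 0.50 and the 8 slow fibre genes a median of 0.46, the fast fibre sum overlapping between genotypes. Named after their values were seen, *Myh4*, the adult IIb myosin, fell from 436 ± 36.3 to 35.7 ± 4.47 CPM (SD, n = 3), and *Myh3*, the embryonic myosin, rose from 342 ± 42.0 to 1122 ± 387 CPM (SD, n = 3; call kept in 2 of the 6 fits without one library). The sum of 12 developmental myosin and myogenic genes was 1227 to 1310 CPM in OsxCre and 1948 to 3129 CPM in the cKO-labelled libraries. These 12 include *Myh3*, and the mean of the sum went from 1273 to 2372 CPM. Of the 12, 9 had a positive and 3 a negative log2 fold change, with a median of 0.23. The part of these shifts in the results for *Fbxo32*, *Trim63* and *Mstn* was not tested.

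*Ctsl*, the lysosomal cysteine protease that rises in wasting muscle and is abundant in macrophages and osteoclasts, lies on chromosome 13 from 64361890 to 64370772. It had 253, 234 and 231 CPM in OsxCre and 323, 356 and 392 CPM in the cKO-labelled libraries. The genotypes did not overlap. *Ctsl* rose 1.49-fold, a log2 fold change of 0.58 (SE 0.09, 95% interval 0.36 to 0.79, adjusted p = 0.0365). The call was lost in each of the 6 fits that left out one library, where the adjusted p was between 0.0558 and 0.139 and the log2 fold change between 0.51 and 0.64.

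Beside *Ctsl*, the summed level of 9 macrophage markers was 424 to 455 CPM in OsxCre and 517 to 550 CPM in the cKO-labelled libraries, with 7 of 9 higher. *C1qb*, a complement gene of macrophages, rose by 0.50 on the log2 scale (adjusted p = 0.0253), a call lost in each of the 6 fits without one library. The 10 osteoclast markers summed to 2381 to 2767 CPM and 2127 to 2889 CPM, with 7 higher, 0 past the threshold, and *Ctsk*, the osteoclast cathepsin, at a log2 fold change of 0.05. None of these markers was at 0 in all libraries, and their part in the *Ctsl* result was not tested. Among 16 other lysosomal genes 13 were higher, 0 passed the adjusted threshold and the median log2 fold change was 0.08. *Ctss*, a cathepsin of macrophages, had the smallest p of these, at a log2 fold change of 0.74 (adjusted p = 0.103), followed by the lysosomal glucosidase gene *Gaa* at 0.20 (adjusted p = 0.189).

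Of the autophagy members, *Bnip3* (chromosome 7, 138890836 to 138909506) encodes a mitophagy receptor induced by FoxO3 and by low oxygen. It had 64.9, 75.5 and 101 CPM in OsxCre and 73.5, 104 and 118 CPM in the cKO-labelled libraries. The genotypes overlapped and each spread widely. Its log2 fold change was 0.29 (SE 0.21, 95% interval -0.19 to 0.77, adjusted p = 0.547). The summed adipocyte markers also spread, from 573 to 2438 CPM in OsxCre and from 881 to 1976 CPM in the cKO-labelled libraries, and their part in it was not tested. *Map1lc3a* (chromosome 2, 155276364 to 155278073) encodes the autophagosome protein LC3A, and it had 188, 186 and 232 CPM in OsxCre and 193, 212 and 182 CPM in the cKO-labelled libraries. Here the log2 fold change was -0.05 (SE 0.11, 95% interval -0.30 to 0.21, adjusted p = 0.883), and its sign turned when OsxCre library 3 or cKO-labelled library 3 was left out.

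The other autophagy genes differed one from another. Of 21 tested, 11 had a positive log2 fold change and 10 a negative one. At the adjusted threshold 1 was called higher and 0 lower, beside 0.776% and 0.481% of all genes tested. The called gene was *Sqstm1*, which encodes the autophagy receptor p62. It had 257, 243 and 234 CPM in OsxCre and 315, 340 and 352 CPM in the cKO-labelled libraries. *Sqstm1* rose by a log2 fold change of 0.46 (SE 0.08, adjusted p = 0.0453), a call lost in each of the 6 fits without one library (adjusted p up to 0.175) and with library totals in place of TMM (adjusted p = 0.0597). *Gabarapl1* and *Map1lc3b*, which belong to the same protein family as LC3A and were named after their values were seen, had log2 fold changes of 0.41 and 0.32 (adjusted p = 0.0663 and 0.0825). Both lay above all OsxCre values in the 3 cKO-labelled libraries, among 4 of the 21 that did so, beside 10.8% of all genes tested. *Map1lc3a* did not.

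*Gadd45a* (chromosome 6, 67035096 to 67037407) is a growth arrest and DNA damage gene that ATF4 induces in atrophying muscle. It had 19.0, 14.8 and 20.7 CPM in OsxCre and 12.4, 12.3 and 16.5 CPM in the cKO-labelled libraries. Libraries 1 and 2 of the cKO-labelled group were below every OsxCre value and library 3 was not. The log2 fold change was -0.41 (SE 0.18, 95% interval -0.82 to 0.01, adjusted p = 0.31). The RefSeq gene *E230016M11Rik* overlaps it, with 378 counts over the 6 libraries, and the library kit was not stated to keep strand. The list for the Gadd45 family and the ATF4 stress response had 14 genes, and also held *Trp53*, the p53 gene, and *Mdm2*. Of the 14, 10 had a negative and 4 a positive log2 fold change, the median was -0.23 and 0 passed the adjusted threshold. *Atf4* itself was at 0.04 (adjusted p = 0.831). At an unadjusted p under 0.05, 5 were lower, *Trp53* and *Mdm2* among them, and 0 higher, beside 8.34% and 8.03% of all genes tested. *Mdm2*, the ubiquitin ligase of p53, was at -0.27 (adjusted p = 0.161) and *Psat1*, an enzyme of serine synthesis, at -0.32 (adjusted p = 0.167).

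*Eif4ebp1* (chromosome 8, 27260327 to 27275656) encodes 4E-BP1, which blocks cap-dependent translation until mTORC1 phosphorylates it, and which FoxO and ATF4 induce. It had 116, 102 and 108 CPM in OsxCre and 118, 151 and 120 CPM in the cKO-labelled libraries. The genotypes did not overlap, but cKO-labelled libraries 1 and 3 were close to OsxCre library 1. Its log2 fold change was 0.25 (SE 0.11, 95% interval -0.00064 to 0.51, adjusted p = 0.306). Of 11 other genes of the 4E-BP family and cap-dependent translation, 9 were higher, none at an adjusted p under 0.05, with a median of 0.06. The initiation factor genes *Eif4b* and *Eif4g1* had the smallest p, at log2 fold changes of 0.20 and 0.68 (adjusted p = 0.261 and 0.357). *Eif4g1* had only 12 to 22 counts per library.

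Levels were compared between the 10 genes only per kilobase of exon. In OsxCre the order was *Map1lc3a* (171 ± 21.9 CPM per kb, SD, n = 3), *Ctsl* (121 ± 5.93), *Eif4ebp1* (111 ± 6.89), *Bnip3* (35.6 ± 8.30), *Fbxo32* (14.05 ± 2.17), *Gadd45a* (10.3 ± 1.74), *Foxo3* (9.92 ± 0.508), *Trim63* (8.87 ± 1.09), *Foxo1* (8.56 ± 1.19) and *Mstn* (7.75 ± 1.88). The ranges over libraries overlapped between *Ctsl* and *Eif4ebp1* and between all neighbours from *Fbxo32* down. In the cKO-labelled libraries *Ctsl* came first at 181 ± 17.4 CPM per kb, *Trim63* moved from eighth to sixth with 16.4 ± 7.62, and *Gadd45a* from sixth to ninth with 7.77 ± 1.37. There, neighbours were separated between *Eif4ebp1* and *Bnip3*, between *Foxo3* and *Foxo1* and between *Foxo1* and *Gadd45a*, and the ranges of all other neighbours overlapped.

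The highest of the 6 values was in cKO-labelled library 3 for 5 of the 10 genes, *Fbxo32*, *Trim63*, *Foxo3*, *Ctsl* and *Bnip3*. That library held the highest value of 16.1% of all genes tested. Because the 10 genes were chosen with earlier results known, this comparison is no test of the set. *Foxo1* and *Eif4ebp1* were highest in cKO-labelled library 2, *Gadd45a* and *Map1lc3a* in OsxCre library 3, and *Mstn* in OsxCre library 2.

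Of 172 further pathway genes in 10 lists, 164 were tested. At an adjusted p under 0.05, 3 were called higher and 0 lower, beside 0.776% and 0.481% of all genes tested. At an unadjusted p under 0.05, 28 were higher and 10 lower, beside 8.03% and 8.34% of all genes tested. These lists, too, were chosen with earlier results of these data known. The calls were *Sqstm1* and 2 genes induced by glucocorticoids. *Tsc22d3*, which encodes the glucocorticoid-induced leucine zipper, had 133, 117 and 111 CPM in OsxCre and 192, 214 and 205 CPM in the cKO-labelled libraries. It rose by a log2 fold change of 0.76 (SE 0.09, adjusted p = 0.0142) and lost the call without OsxCre library 2 (adjusted p = 0.0534) or cKO-labelled library 3 (adjusted p = 0.0912). *Fkbp5*, a chaperone of the glucocorticoid receptor, had 55.2, 39.0 and 33.9 CPM against 83.2, 92.2 and 113 CPM. *Fkbp5* rose by 1.17 on the log2 scale (SE 0.19, adjusted p = 0.0362), with the call kept in 1 of the 6 fits, the one without OsxCre library 1.

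**Figure D4:**
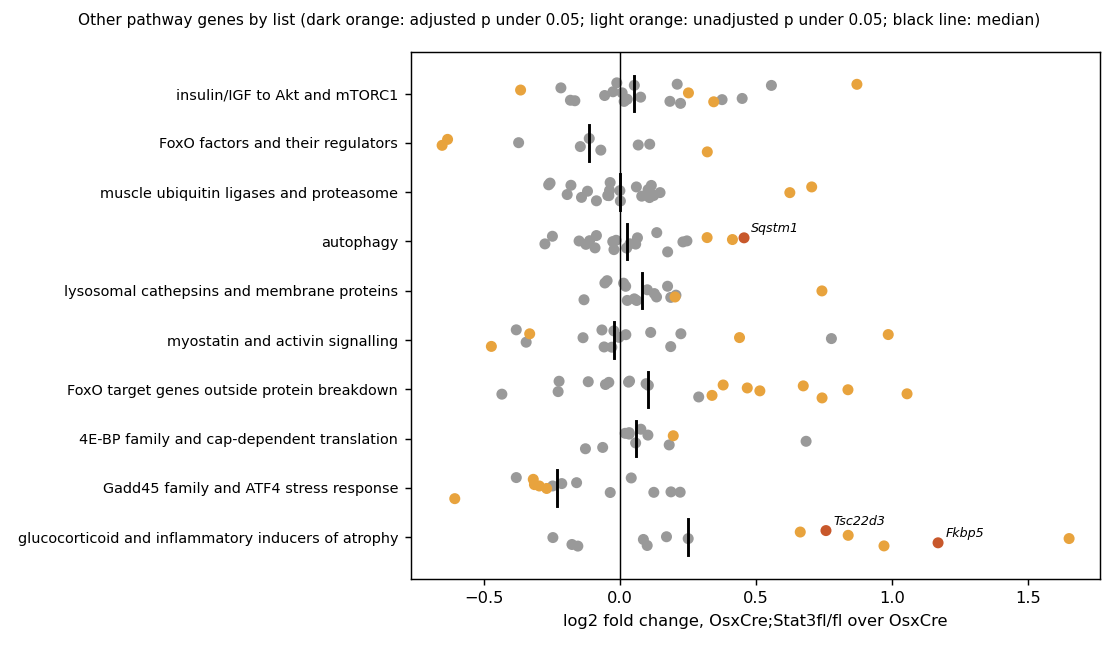
Log2 fold change of each tested pathway gene, cKO-labelled over OsxCre, by list, with the list median as a black line and colour for the test. The medians lie between -0.23 for the Gadd45 and ATF4 list and 0.25 for the glucocorticoid and inflammatory list, and the named points are the 3 genes at an adjusted p under 0.05.

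The glucocorticoid and inflammatory list held genes that glucocorticoids induce as well as inducers of atrophy. Of 13 tested, 10 had a positive log2 fold change and 6 were higher, 0 lower, at an unadjusted p under 0.05. Of all genes tested, 8.03% were higher and 8.34% lower by that rule. The 3 negative ones were *Nr3c1*, the glucocorticoid receptor gene, at -0.15, and the cytokine genes *Tnf* and *Il1b* at -0.25 and -0.18 (adjusted p = 0.518, 0.812 and 0.892). They, too, were named after their values were seen, and *Tnf* and *Il1b* had only 7 to 21 counts per library. *Per1*, *Zbtb16* and *Klf9*, further glucocorticoid-responsive genes named after their values were seen, were at 0.97, 1.65 and 0.84 (adjusted p = 0.0657, 0.121 and 0.139). *Tnfrsf12a*, the TWEAK receptor, was at 0.66 (adjusted p = 0.0578).

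FoxO target genes outside protein breakdown gave no call at the adjusted threshold among 19 tested, and the list median was 0.10. At an unadjusted p under 0.05, 8 were higher and 0 lower, beside 8.03% and 8.34% of all genes tested. *Txnip*, which blocks thioredoxin and glucose uptake, had 840, 773 and 890 CPM in OsxCre and 1062, 1320 and 1612 CPM in the cKO-labelled libraries, a log2 fold change of 0.67 (adjusted p = 0.0905). *Depp1*, listed as *8430408G22Rik*, was at 1.06 (adjusted p = 0.0963). The other 6 of the 8, named after their values were seen, were *Rbl2*, *Sesn1*, *Klf15*, *Ddit4*, *Cdkn1a* and *Pik3ip1*, with log2 fold changes between 0.34 and 0.84. For all 8, which were picked by their p, the cKO-labelled values lay above every OsxCre value, as for 10.8% of all genes tested. Of the 19 genes, 6 had a negative log2 fold change. Among these, *Tnfsf10* at -0.43 (adjusted p = 0.388) lay below every OsxCre value, as did 1905 of the 15600 genes tested. *Klf15* and *Ddit4* also respond to glucocorticoids.

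Upstream of FoxO, the insulin, IGF, Akt and mTORC1 genes gave 0 calls among 21 tested at the adjusted threshold and a median of 0.05. *Pdpk1*, the kinase that activates Akt, was at 0.34 (adjusted p = 0.175), and *Akt2*, the Akt gene of insulin-responsive tissue, at -0.37 (adjusted p = 0.183). For *Akt2* every cKO-labelled value lay below every OsxCre value, as for 1905 of the 15600 genes tested. Among 9 FoxO factors and regulators, *Ep300*, an acetyltransferase that modifies FoxO, was at 0.32 and *Ppargc1a*, the PGC-1alpha coactivator that restrains FoxO3 in muscle, at -0.63 (both adjusted p = 0.17). *Foxo6*, also named after its values were seen, was at -0.65 (adjusted p = 0.283), opposite in sign to *Foxo1* and *Foxo3*.

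Other ligases and proteasome genes had a median of -0.00021, with 0 of 23 called. *Fbxo40*, a muscle F-box gene, was at 0.62 (adjusted p = 0.131) and *Itch* at 0.71 (adjusted p = 0.159). Both lay above all OsxCre values, as did 10.8% of all genes tested. In myostatin and activin signalling, 0 of 17 were called and the median was -0.02. *Wfikkn1*, which encodes an inhibitor that binds myostatin, was at 0.99 (adjusted p = 0.13) with only 18 to 44 counts per library. *Acvr2b*, the type II receptor of myostatin, was at -0.47 (adjusted p = 0.161).

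The profiles nearest to each called member over the 6 libraries, by the same root mean square difference, were *Capn6*, *Rpap2* and *Epha1* for *Foxo3* (0.0464 to 0.0597) and *Fbn2*, *Cyth3* and *Ms4a6d* for *Ctsl* (0.0350 to 0.0608). For *Fbxo32* they were *Tspan8*, *Rapgef5* and *Trim5*, each under 10 CPM in every library, and *Trim63*, whose own nearest were *Olfr1033* and *Zkscan16* before *Fbxo32*, was not among its 3. For *Mstn* they were *Dcun1d2*, *Pdxp* and *Gm5075*, and for *Foxo1* they were *Arid4a*, *Tenc1* and *Mettl7a1*. *Gadd45a* was nearest to *Pde4c*, *2700097O09Rik* and *Ncapg*, *Bnip3* to *Osbpl7*, *Gm20036* and *Nubpl*, and *Map1lc3a* to *Col25a1*, *Timm44* and *Ubxn1*.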

How the data were processed

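Libraries of 3 OsxCre and 3 OsxCre;Stat3fl/fl newborns were grouped by the genotype in their labels. The authors deposited raw whole-number counts per gene symbol for each library. The submitters' processing notes name HISAT2 and GRCm38, whereas the methods of the paper name TopHat, mm9 and Cufflinks, so the route to these counts is unclear, and the counter and annotation are not given in the sources used here. Labels describe polyadenylated RNA and the paper total RNA, and without a stated stranded kit, reads of overlapping or antisense genes cannot be told apart. The mice were littermates, but which libraries share a litter is not given. The p-values set the genotype difference against the spread between these libraries.

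The test was edgeR 4.0.16 under R 4.3.3 (filterByExpr, minimum count 10, minimum total 15; TMM; quasi-likelihood F-test, Benjamini-Hochberg over 15600 genes). Standard errors are the log2 fold change over the square root of F. Alternatives used DESeq2 1.42.0 and limma 3.58.1. Profiles were compared on log2 CPM with a prior count of 2. Counts of the members were also divided by the summed counts of 14 sarcomere genes, with *Acta1*, the fast fibre list or the developmental myosin and myogenic list as alternatives. Single values were compared by exact permutation tests. The fits were tested on simulated data. Exon lengths came from GENCODE annotation of mm9, used for length only, and positions from RefSeq on GRCm38.p6. Symbols missing from the files were looked up by synonym.

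The members and gene lists were chosen with earlier results of these data known. Named genes are all members, *Stat3*, called genes of each pathway list or else its 2 with the smallest p, up to 4 most counted genes of a marker list and the 3 nearest profiles per member. The nearest profiles of *Eif4ebp1* are not reported here.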

Additional observations from a re-analysis of the deposited data

How the results depend on the processing

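Under all 13 alternatives *Foxo3* and *Ctsl* kept a positive log2 fold change, between 0.59 and 0.72 and between 0.51 and 0.64. Both stayed called with DESeq2's size factors, library totals, TMM without muscle marker genes, no filter, DESeq2's test and limma-voom. Of the 10 genes, 0 were called with the replicate block and 0 to 1 in the fits that left out one library. Over all genes, the main 196 calls became 428 without the filter, 539 with DESeq2's test, 1 with the replicate block and 12 to 103 without one library. With library totals in place of TMM the split was 112 higher and 114 lower, beside 121 and 75. Same-numbered libraries deviated from their group means with correlations of -0.101, -0.518 and -0.085. With 3 libraries per group these cannot decide whether the numbers pair litters. The labels tie the numbers to no animal, litter or day, so any pairing is unknown. The *Map1lc3a* fold change ranged from -0.105 to 0.064 without one library, turning to 0.064 without OsxCre library 3 and to 0.0042 without cKO-labelled library 3. Per muscle content, 3 to 6 genes were separated without one library, and 5 with the developmental myosin and myogenic list as denominator, where *Foxo1* and *Eif4ebp1* joined the 3. With *Acta1* alone the count was 3 again, but with *Foxo3* above and *Gadd45a* overlapping. At this depth 3 counts correspond to 0.252 to 0.368 CPM, and every member lay above that in each library.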
